A study of Mus musculus with 7 samples.

Results

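The Rtl1 antisense miRNAs studied here are 5 hairpins, miR-127, miR-136, miR-431, miR-433 and miR-434. They are transcribed from the strand opposite the coding sequence of the retrotransposon-like gene Rtl1. Their 10 mature arms, the -5p and the -3p arm of each hairpin, were taken by name from the 1914 mouse miRNA rows of the count tables. All 10 passed the filter on low counts, as did 534 mouse miRNAs in all. Small RNA of the dissected lateral ventricles with the choroid plexus of adult C57BL/6J mice was sequenced in 4 libraries of TAp73 knockouts and 3 libraries of wild types. TAp73 is the isoform of the transcription factor p73 that carries the transactivation domain, and the study asked how it acts on multiciliated cells of the brain. Both groups share the strain, the adult stage and the tissue. The sources used here do not give the design of the knockout allele, an age more exact than adult, or any pooling of animals. Whether the libraries are of separate animals is not stated in the labels, and the p-values therefore cover the spread among libraries, which may be technical.

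A miRNA hairpin is cut from a longer transcript by Drosha and again by Dicer, and usually 1 arm of the resulting duplex is kept in an Argonaute protein. The kept arm finds messenger RNAs mainly through its seed, bases 2 to 8, and a perfectly complementary target can be cleaved. The 5 hairpins lie in the imprinted Dlk1-Dio3 region, where noncoding RNAs come from the maternal chromosome and Rtl1, needed for the fetal vessels of the placenta, from the paternal one. Because the hairpins are read from the strand opposite Rtl1, their arms are complementary to its messenger RNA.

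The sequences below are the arms on which the results turn, the dominant arm of each hairpin and both arms of miR-431, written 5′ to 3′ with the seed in capitals (RefSeq, GRCm38.p6).
miR-127-3p: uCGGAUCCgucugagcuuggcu
miR-434-3p: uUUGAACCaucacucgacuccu
miR-136-3p: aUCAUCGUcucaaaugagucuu
miR-433-3p: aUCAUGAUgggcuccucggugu
miR-431-3p: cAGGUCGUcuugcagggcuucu
miR-431-5p: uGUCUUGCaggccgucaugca
The 10 arms carried 10 distinct seeds, and 0 of them was shared with any other of the 1679 mature mouse miRNA names searched. The arms are thus neighbours in the genome without being a seed family. The 2 arms of miR-431 shared a run of 10 bases, GUCUUGCAGG, the longest run shared by any of the 45 pairs of arms. It began at base 2 of the 5p arm and at base 7 of the 3p arm, so it covered the 5p seed and lay mostly outside the 3p seed.

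Each of the 10 arms had 1 perfectly complementary site in the Rtl1 transcript, and all 10 sites lay inside the coding sequence of 5232 nt. The sites of the 2 most abundant arms are shown as they stand in the Rtl1 messenger strand, with the bases opposite the seed in capitals.
Rtl1 site of miR-127-3p: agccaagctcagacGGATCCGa
Rtl1 site of miR-434-3p: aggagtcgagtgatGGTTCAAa
That of miR-127-3p began at base 2495 of the coding sequence, and that of miR-434-3p lay nearer its start. Rtl1 itself lies on the minus strand at chr12:109589193-109600330 (GENCODE M21, GRCm38), with its coding sequence at chr12:109590172-109595403. In order along the plus strand the hairpins were Mir431 (chr12:109590447-109590537), Mir433 (chr12:109591715-109591838), Mir127 (chr12:109592846-109592915), Mir434 (chr12:109594506-109594599) and Mir136 (chr12:109595327-109595388). The gaps between neighbouring hairpins measured 1177, 1007, 1590 and 727 nt. Messenger RNA was not measured, so the level of Rtl1 is not reported.

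The hairpin of miR-127, from RefSeq, is shown with its arms in capitals because the arms differed most in level there.
Mir127: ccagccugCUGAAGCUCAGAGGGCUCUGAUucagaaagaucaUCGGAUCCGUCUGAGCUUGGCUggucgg
The hairpin of miR-434 is shown because both of its arms carried the run UUUGAACCA, at base 14 of the 5p arm and base 1 of the 3p arm. Here the capitals mark the core of that run, GAACCA.
Mir434: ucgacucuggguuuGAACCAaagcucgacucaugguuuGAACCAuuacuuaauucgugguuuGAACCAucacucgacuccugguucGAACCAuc
The core stood 4 times in this hairpin, read on the strand of the hairpin. It was present in 16 of the 1005 mouse hairpins searched (1.59%), and 1 of them, miR-434, held it 4 or more times.

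**Figure D1:**
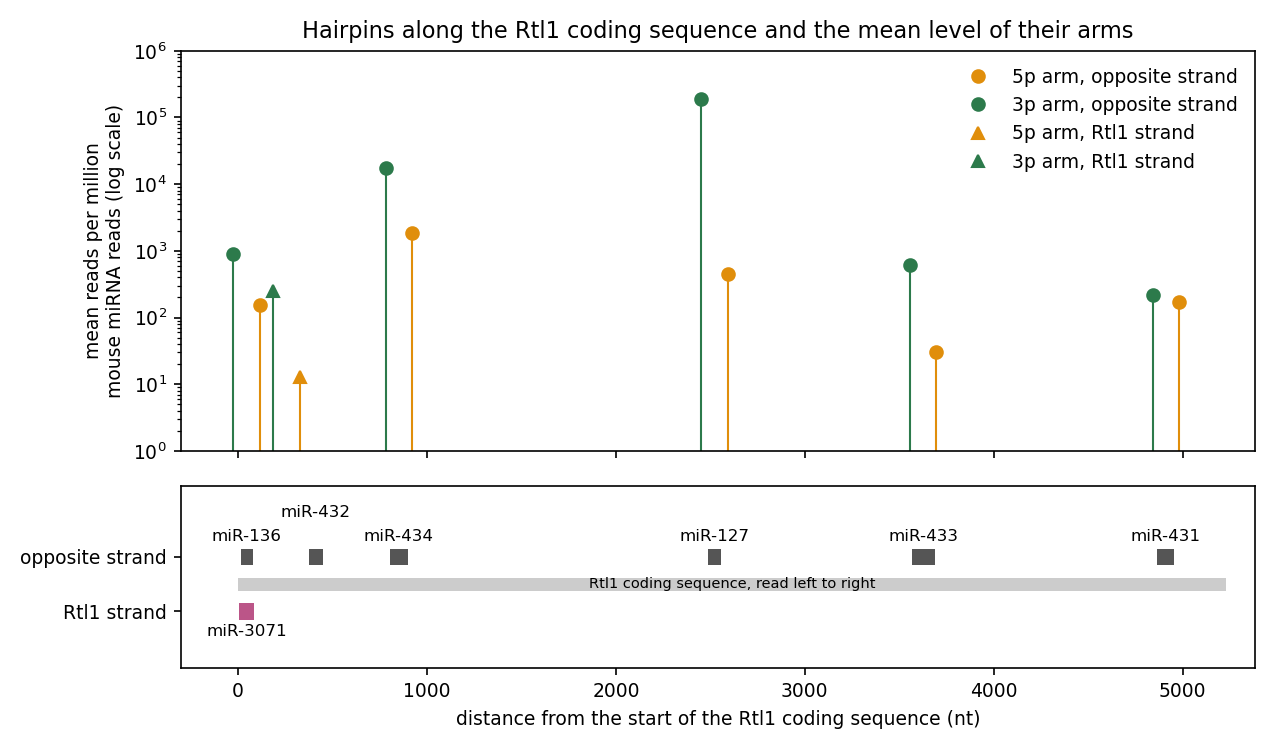
Position of the hairpins along the Rtl1 coding sequence (lower panel, distance in nt from its start, read in the direction of Rtl1) and the mean level of each arm over 7 libraries (upper panel, reads per 1000000 mouse miRNA reads, log scale). Orange marks 5p arms, green marks 3p arms, circles the strand opposite Rtl1 and triangles the Rtl1 strand, and symbols are shifted sideways so that arms of 1 hairpin can be told apart. The 3p arm of miR-127, in the middle of the coding sequence, stands highest.

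Sequencing depth ran from 969106 to 9343921 assigned reads per library, and mouse miRNAs held 98.6% to 99.0% of them. Levels are given as CPM, reads per 1000000 mouse miRNA reads of the same library. Knockout replicate 3 was the shallowest library, and its summed choroid plexus markers (2016 CPM) were lower than in the other knockouts (4999.7 to 7435 CPM). Wild type replicate 2 was at 2015 CPM, against 8320 and 11789 CPM in the other wild types. Nearly all of this choroid plexus sum was miR-204-5p (mean 6225 CPM), with miR-211-5p at a mean of 4.69 CPM and miR-204-3p at 3.42 CPM. Wild type replicates 1 and 2 were each closest to knockout replicate 2 (Pearson r of 0.986 and 0.991 across log2 levels of the tested miRNAs, which are not independent replicates), and each knockout was closest to another knockout. Wild type replicate 3 stood apart by its pituitary and hypothalamus markers, miR-7a-5p and miR-375-3p, at a sum of 1234 CPM against 260 to 553 CPM in the other 6 libraries, and it had the lowest summed neuronal markers. Results are also given without these libraries where the sign turned, beside the result or in the closing section. Values that moved by over 1.5 times without a turn of sign are given in part only. Summed multiciliated cell markers were at 385 to 760.5 CPM in the knockouts and 1291 to 3675 CPM in the wild types. Their 6 arms moved in opposite directions: edgeR called the 4 arms of miR-34b and miR-34c lower in the knockouts and miR-449a-5p and miR-449c-5p higher, and these were the 6 miRNAs called of the 534. Of the 6 rows, 5 had reads in every library. No messenger RNA was measured, so the deletion itself could not be checked in these libraries.

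mmu-miR-127-3p was the most abundant miRNA of all 7 libraries, with 19.2% ± 1.90 (SD, n = 7) of mouse miRNA reads. Loss of the miR-127 hairpin in the mouse is known for defects of the placenta. The next miRNA was miR-181a-5p in every library, at 11.4% ± 0.96 (SD, n = 7), and miR-127-3p exceeded it 1.36 to 1.97 times. The arms miR-99b-5p (6.54% ± 0.89), miR-26a-5p (5.61% ± 0.54) and miR-125b-5p (3.79% ± 0.32; SD, n = 7 each) came after it. A share of reads also carries how readily each sequence takes up the adapters, so it is an order of reads rather than of molecules.

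In the 4 knockout libraries miR-127-3p held 18.0%, 17.6%, 18.9% and 16.8% of mouse miRNA reads. In the 3 wild type libraries it held 20.8%, 19.97% and 22.1%. Every knockout library was below every wild type library. Groups stood apart in this direction, in CPM, for 8.24% of the 534 miRNAs tested, and in either direction for 11.8%. The means of miR-127-3p were 17.8% ± 0.87 (SD, n = 4) and 21.0% ± 1.09 (SD, n = 3). The difference, -3.14 percentage points, had an exact permutation p of 0.029 (two-sided, 35 arrangements), the smallest p that 4 against 3 libraries can give. Counting error was far smaller than this difference, with 95% Wilson half-widths of 0.025 to 0.079 points. Since the kit carries no molecular identifiers, these intervals cover counting error only. Without knockout replicate 3 and wild type replicate 2 the difference was -4.01 points (exact permutation p = 0.1, the smallest possible there), and every single-library omission left it negative. Wild type replicate 3, with the highest share, was the library with the high pituitary and hypothalamus markers, and without it the difference was -2.56 points (exact permutation p = 0.067, the smallest possible there). The part of those markers was not tested.

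A share falls when other miRNAs take more of the reads, and the scaled test was less decided. With TMM scaling, which sets libraries to a common level over most miRNAs, the knockouts stood at 185706, 178947, 192598 and 172369 CPM and the wild types at 206741, 196718 and 206380 CPM. The groups still did not overlap, with the highest knockout close to the lowest wild type. edgeR's quasi-likelihood test gave a log2 fold change, knockout minus wild type, of -0.16 ± 0.09 (SE), with a 95% interval of -0.36 to 0.04 and a Benjamini-Hochberg adjusted p of 0.51. With library totals alone as the scaling it was -0.23 (edgeR adjusted p = 0.29), while the median over all miRNAs tested moved from -0.023 to -0.10. The exact permutation test of the share was a test of 1 value, whereas the edgeR p was adjusted over 534 miRNAs. With TMM scaling the edgeR p of miR-127-3p was 0.115 before that adjustment, so it was above 0.05 as well. That depended on the scaling. With library totals alone, 3 of the 10 arms had an edgeR p under 0.05 before adjustment, against 74 of all 534 miRNAs. In that setting miR-127-3p had the smallest adjusted p of the 10. In bulk tissue, fewer cells of a type and less RNA per cell cannot be told apart. Summed markers of neurons were 35309 to 39586 CPM in the knockouts and 21449 to 35694 CPM in the wild types, and those of astrocytes and progenitors were 35760 to 41685 CPM against 28586 to 34833 CPM, higher in every knockout. The neuronal markers did not move alike: the log2 fold change was 0.70 for miR-128-3p, the most abundant of them, and -0.46 for miR-129-2-3p. By edgeR 0 of the 7 were called. All 7 neuronal and all 3 astrocyte and progenitor markers had reads in every library, and the part of either list in the share of miR-127-3p was not tested.

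**Figure D2:**
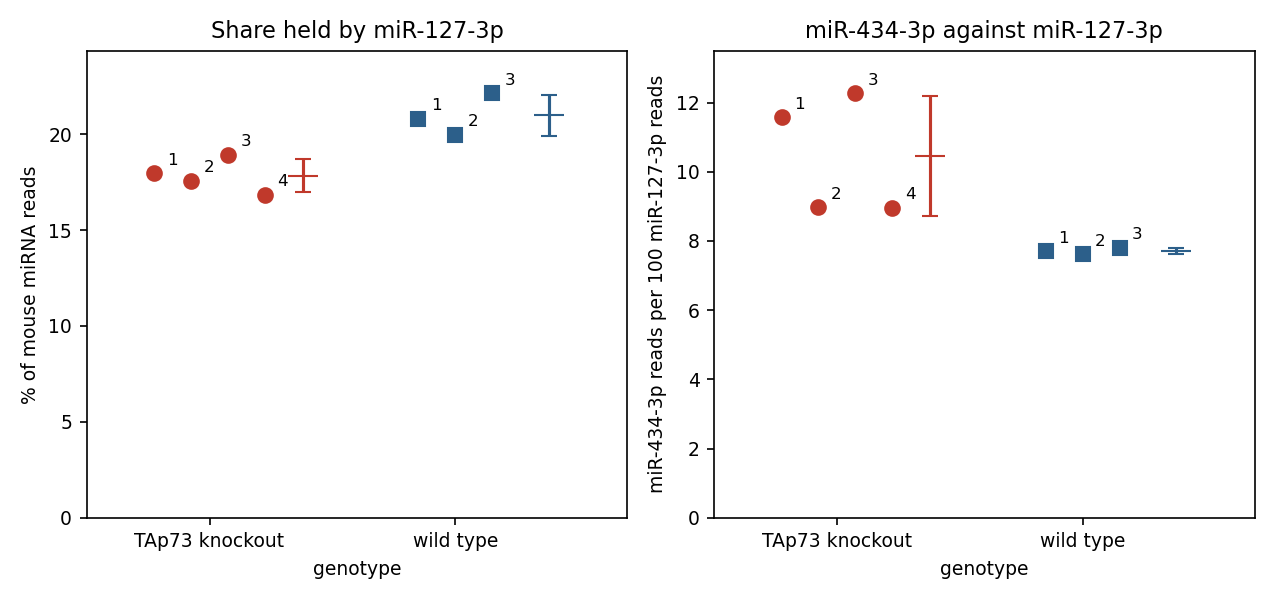
Share of mouse miRNA reads held by miR-127-3p (left, %) and reads of miR-434-3p per 100 reads of miR-127-3p (right) in each library, numbered by replicate, by genotype. Crosses with bars give the mean and SD (n = 4 knockouts, n = 3 wild types), and both axes start at 0. The knockout libraries lie below the wild types on the left and above them on the right.

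The 10 arms differed widely in level. miR-434-3p, the strongest arm after miR-127-3p, was 10.9 times lower than it, and the weakest arm, miR-433-5p, ranked 289 among mouse miRNAs. The 10 arms together held 20.1% ± 1.26 (SD, n = 4) of the reads in the knockouts and 23.1% ± 1.202 (SD, n = 3) in the wild types, and most of that was miR-127-3p. Of the reads of the 10 arms, miR-127-3p held 87.3% to 89.8% in the knockouts and 90.9% to 91.1% in the wild types. The other 9 arms together stood at 22843 ± 4050 CPM (SD, n = 4) in the knockouts and 20861 ± 1146 CPM (SD, n = 3) in the wild types, with overlapping ranges.

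**Figure D3:**
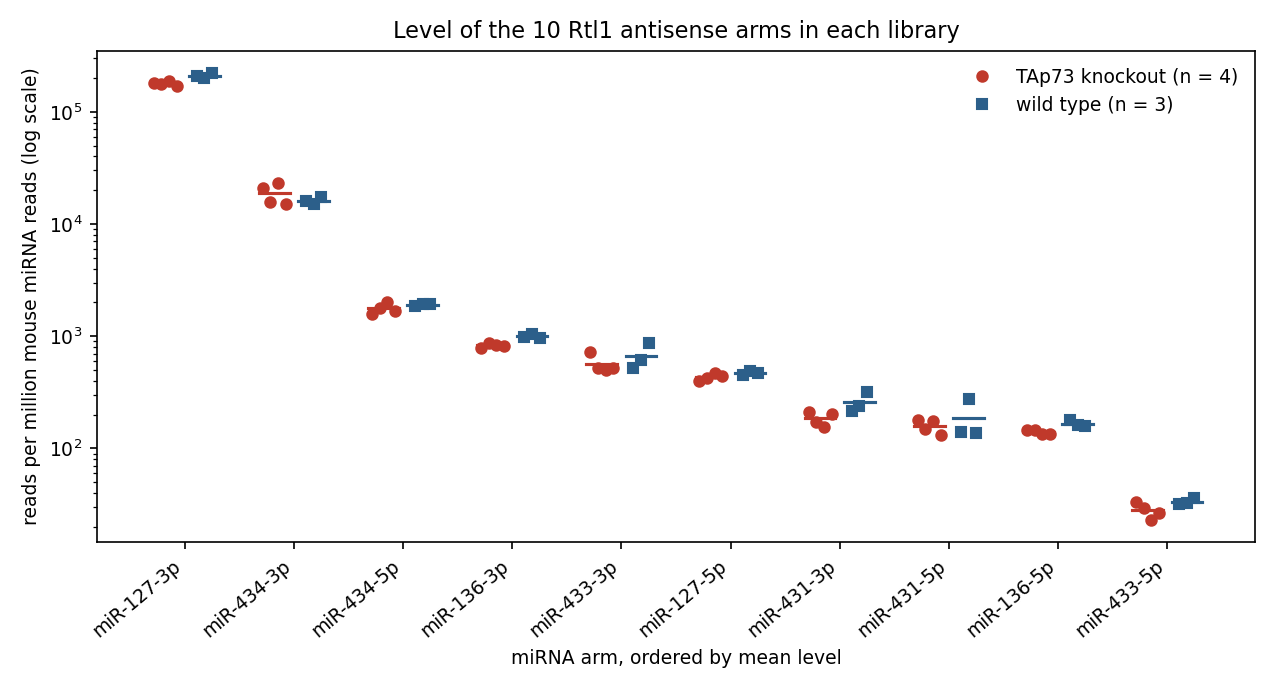
Level of the 10 arms in each library (reads per 1000000 mouse miRNA reads, log scale), ordered by their mean over the 7 libraries. Red circles are the 4 knockout libraries, blue squares the 3 wild types, and short lines the group means.

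mmu-miR-434-3p was the most abundant arm after miR-127-3p, ranking 14 among mouse miRNAs. It stood at 20829, 15791, 23220 and 15090 CPM in the knockouts and at 16024, 15206 and 17280.0 CPM in the wild types. Its knockout libraries split into a higher and a lower pair, and the lower pair lay within or just under the range of the wild types. Its log2 fold change of 0.29 ± 0.16 (SE, 95% interval -0.05 to 0.63, edgeR adjusted p = 0.46) was the only positive one of the 10. It was 0.17 without knockout replicate 3 (edgeR adjusted p = 0.63) and 0.15 without knockout replicate 3 and wild type replicate 2 (edgeR adjusted p = 0.64). Set against miR-127-3p in the same library it was higher in every knockout than in any wild type. There were 11.6, 8.99, 12.3 and 8.96 reads of miR-434-3p per 100 reads of miR-127-3p in the knockouts and 7.70, 7.61 and 7.81 in the wild types. This ratio was picked after its values were seen, as 1 of 5 among the 45 pairs of arms whose groups did not overlap, and no test is given for it. Of those 5 pairs, 3 included miR-434-3p, and pairs of other miRNAs were not counted for comparison.

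The 5p partner of that arm, miR-434-5p, stood at 1592, 1791, 2023 and 1688 CPM in the knockouts and at 1857, 1950.2 and 1919 CPM in the wild types. The ranges overlapped, and the log2 fold change was -0.031 ± 0.12 (SE, edgeR adjusted p = 0.92). The 3p arm was 9.63 times its level.

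mmu-miR-136-3p, ranking 70, was lower in every knockout than in every wild type. It stood at 786, 869, 830.3 and 817.9 CPM in the knockouts and at 989, 1039 and 967 CPM in the wild types. The groups also stood apart after TMM scaling. The fitted log2 fold change was -0.20 ± 0.11 (SE, 95% interval -0.45 to 0.05, edgeR adjusted p = 0.51).

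Its partner miR-136-5p, which matches Rtl1 near the start of the coding sequence, stood at 147, 147, 135 and 135 CPM in the knockouts and at 179.8, 161 and 158 CPM in the wild types. The groups were apart in CPM and overlapped after TMM scaling. The log2 fold change was -0.16 ± 0.15 (SE, edgeR adjusted p = 0.67), and -0.10 without wild type replicate 1 (edgeR adjusted p = 0.86).

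miR-431 was the hairpin with the most even arms. miR-431-3p stood at 209, 172, 156 and 204 CPM in the knockouts and at 214, 238 and 321 CPM in the wild types, apart in CPM and overlapping after TMM scaling. Its log2 fold change of -0.38 ± 0.17 (SE, 95% interval -0.77 to -0.00096) was the largest in size of the 10, and its p in edgeR was 0.0495 before and 0.38 after adjustment. Without wild type replicate 3, its highest library and the one with the high pituitary and hypothalamus markers, it was -0.23 (edgeR adjusted p = 0.60). miR-431-5p stood at 179, 148, 174 and 131 CPM in the knockouts and at 139, 278 and 138 CPM in the wild types. Wild type replicate 2 alone was high, so the log2 fold change of -0.15 ± 0.26 (SE, edgeR adjusted p = 0.80) became 0.29 without that library (edgeR adjusted p = 0.55).

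miR-433-3p stood at 721, 524, 496.3 and 517 CPM in the knockouts and at 526, 613 and 878 CPM in the wild types. Knockout replicate 1 and wild type replicate 3 were the high libraries of their groups, and the ranges overlapped. The log2 fold change was -0.16 ± 0.19 (SE, edgeR adjusted p = 0.73), and it was 0.041 without wild type replicate 3 (edgeR adjusted p = 0.96).

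miR-433-5p had the fewest reads, 22 to 307 per library, and stood at 33.2, 29.5, 23.0 and 26.5 CPM in the knockouts and at 31.9, 32.6 and 36.2 CPM in the wild types. The ranges overlapped. Its log2 fold change was -0.15 ± 0.18 (SE, edgeR adjusted p = 0.75). It was -0.25 without knockout replicate 1 (edgeR adjusted p = 0.70), -0.089 without knockout replicate 3 and -0.087 without knockout replicate 3 and wild type replicate 2 (edgeR adjusted p = 0.84 for each).

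miR-127-5p, the minor arm of the most abundant hairpin, stood at 400.2, 425, 468 and 443 CPM in the knockouts and at 452.97, 490.1 and 467 CPM in the wild types. The ranges overlapped here, unlike those of its 3p partner. The log2 fold change was -0.040 ± 0.13 (SE, edgeR adjusted p = 0.90).

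Over the whole set, 9 of the 10 fold changes were negative and their median was -0.15, where 282 of all 534 were negative and their median was -0.023. By edgeR 0 of the 10 arms passed an adjusted p of 0.05, and 1 had an unadjusted p under 0.05. Over all miRNAs tested, 1.12% passed the adjusted threshold and 12.9% had an unadjusted p under 0.05. DESeq2 and limma-voom also called 0 of the 10, and 3.18% of the miRNAs with an adjusted p in DESeq2 were called over all. The groups did not overlap, with the knockouts lower, for 4 of the 10 arms in CPM against 8.24% of all tested, and for 2 of 10 (miR-127-3p and miR-136-3p) after TMM scaling against 6.18%. The knockouts were higher without overlap for 0 of the 10 on either scale, against 3.56% of all tested in CPM and 4.87% after TMM scaling, so that groups stood apart in either direction for 11.8% and 11% of all. With 3 and 4 libraries, an adjusted p above 0.05 does not show that the levels were equal.

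**Figure D4:**
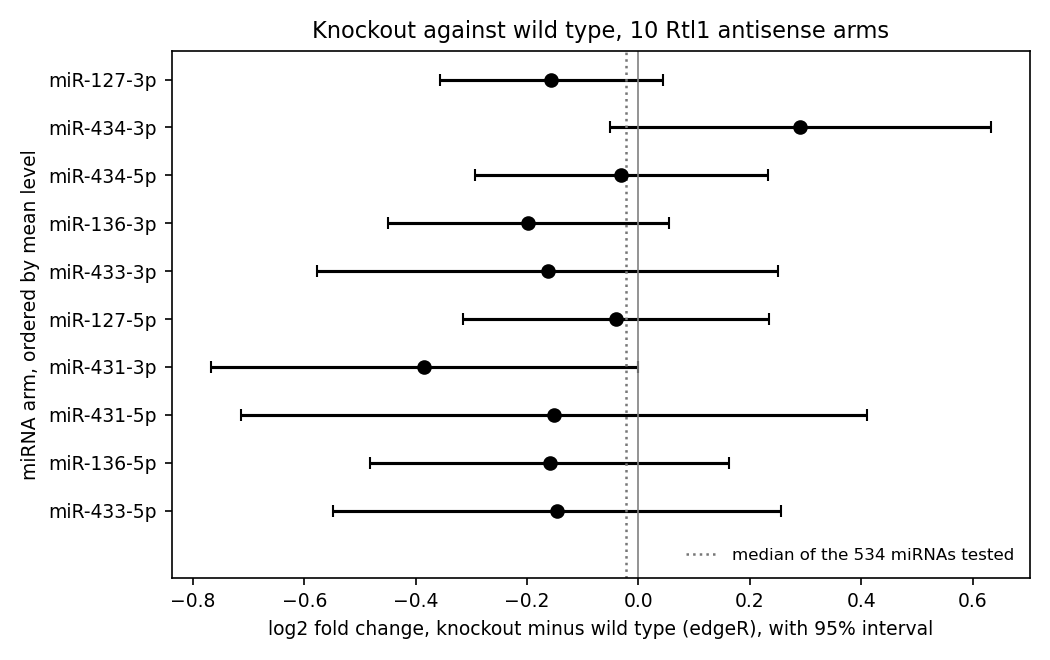
Log2 fold change, knockout minus wild type, of each arm with its 95% interval from edgeR, ordered by mean level. The dotted line marks the median of all 534 miRNAs tested (-0.023), and all intervals but that of miR-431-3p, which ends just under 0, span 0.

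The order of the arms by mean level was partly secure. Neighbours in the order had ranges that did not overlap for miR-127-3p over miR-434-3p, miR-434-3p over miR-434-5p, miR-434-5p over miR-136-3p (2.04 times), miR-433-3p over miR-127-5p (1.36 times), miR-127-5p over miR-431-3p (2.08 times) and miR-136-5p over miR-433-5p (4.99 times). The ranges overlapped for miR-136-3p over miR-433-3p (1.47 times, higher in 7 of 7 libraries), miR-431-3p over miR-431-5p (1.28 times, 5 of 7) and miR-431-5p over miR-136-5p (1.12 times, 4 of 7).

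Arm use, the share of the 3p arm in the reads of both arms, separated the hairpins more than the genotypes. The 3p arm of miR-127 held 99.78%, 99.76%, 99.75% and 99.74% of its hairpin's reads in the knockouts and 99.78%, 99.76% and 99.79% in the wild types. There were on average 427 reads of the 3p arm for each read of the 5p arm. Of the 222 hairpins with enough reads in both arms, 12 had a higher mean 3p share.

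The 3p arm also dominated in miR-433, miR-434 and miR-136. In miR-433 it held 94.7% to 95.6% in the knockouts and 94.3% to 96.0% in the wild types, and in miR-136 it held 84.2% to 86.0% and 84.6% to 86.6%. In miR-434 it held 92.9%, 89.8%, 92.0% and 89.9% in the knockouts and 89.6%, 88.6% and 90.0% in the wild types, with the same 2 knockout libraries high as for the level of miR-434-3p. Over the 222 hairpins the 3p share was above 50% in 110 (49.5%), so 3p dominance was not the rule over all hairpins.

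In miR-431 neither arm dominated in every library. Its 3p arm held 53.8%, 53.7%, 47.3% and 60.9% in the knockouts and 60.6%, 46.1% and 69.9% in the wild types. The share lay below 50% in knockout replicate 3 and wild type replicate 2, which are also the libraries with low choroid plexus markers, and the part of those markers was not tested. Counting error of up to 5.48 percentage points (Wilson half-width) applied to this hairpin. A mean 3p share between 40% and 60% was found in 18 of the 222 hairpins.

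No hairpin of the 5 passed the test of arm use between the genotypes. The changes in the log2 ratio of 3p to 5p reads, knockout minus wild type, ranged from -0.30 ± 0.31 (SE, 95% interval -0.96 to 0.37) for miR-431 to 0.30 ± 0.18 (SE, 95% interval -0.08 to 0.69) for miR-434. Single libraries decided the value of miR-431, which was -0.68 without wild type replicate 2 (edgeR unadjusted p = 0.036, adjusted p = 0.82) and 0.048 without wild type replicate 3 (edgeR adjusted p = 0.996). Without knockout replicate 3 it was -0.19 (edgeR adjusted p = 0.90). Without knockout replicate 3 and wild type replicate 2 it was -0.57 (edgeR adjusted p = 0.73), and that of miR-434 was 0.20 (edgeR adjusted p = 0.82). The value of miR-434 was 0.19 without knockout replicate 1 (edgeR adjusted p = 0.96). edgeR's paired-count model gave adjusted p from 0.79 to 0.998, and the groups overlapped for all 5 hairpins. The test called 0 of 222 hairpins (0%), with 8 at an unadjusted p under 0.05, and limma on the log2 ratio called 0 as well.

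**Figure D5:**
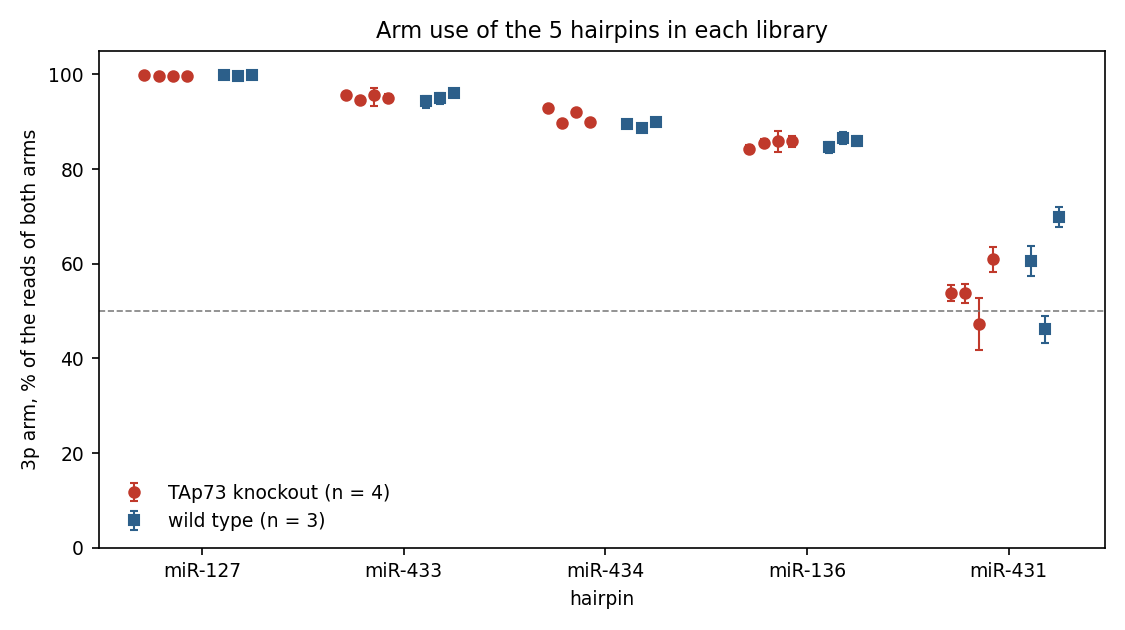
Share of the 3p arm in the reads of both arms of each hairpin (%), by library, with 95% Wilson intervals, which cover counting error only. The dashed line marks 50%, and only miR-431 lies near it.

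Rtl1 has a hairpin on its own strand as well, miR-3071, at chr12:109595318-109595397, opposite miR-136. Its arms match the messenger strand and have no complementary site in the transcript, so it is no Rtl1 antisense miRNA. The sequences of the 2 arms that are compared are shown with their seeds in capitals.
miR-3071-3p: aUCAUCAAaacaaauggagucc
miR-136-5p: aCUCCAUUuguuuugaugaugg
miR-3071-3p stood at 259 ± 22.3 CPM (SD, n = 4) in the knockouts and 243 ± 31.6 CPM (SD, n = 3) in the wild types. It outnumbered miR-136-5p in 7 of 7 libraries, at 1.85, 1.61, 2.09 and 1.82 reads per read of miR-136-5p in the knockouts and 1.24, 1.74 and 1.43 in the wild types, with overlapping groups. miR-136-3p in turn outnumbered miR-3071-5p 55.9 to 103 times. The sources used here do not say how reads that match more than 1 row, or the opposite strand, were counted. The compared arms overlap on opposite strands, miR-3071-3p at chr12:109595329-109595350 and miR-136-5p at chr12:109595331-109595352. In sequence, miR-136-3p and miR-3071-3p matched at 12 of 22 positions.

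The arms were compared with miR-127-3p by the SD, over the 7 libraries, of the log2 ratio of their level to its level. A small SD means that this ratio was steady. A miRNA with a nearly flat level can have a small SD too: let-7d-3p, at 420 ± 14.2 CPM (SD, n = 7), had 0.148 and ranked 29. The ranks therefore do not show that levels rose and fell together. Of the 200 miRNAs with a mean of at least 100 CPM the median SD was 0.25. Among non-members the closest were miR-101b-3p (0.072), miR-410-3p (0.096), miR-879-5p (0.102), miR-582-3p (0.104) and miR-300-3p (0.104). Members ranked 3 (miR-136-3p, 0.101), 7 (miR-136-5p), 8 (miR-127-5p) and 9 (miR-434-5p). By contrast miR-431-3p, miR-433-3p, miR-434-3p and miR-431-5p ranked 110, 111, 126 and 162. The remaining member, miR-433-5p, had a mean of 30.4 CPM, under the cut of 100 CPM, and was not ranked. Its SD was 0.19. The libraries are shared by all pairs, and no test was made of these ranks.

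The other miRNAs listed for the Dlk1-Dio3 region comprised 104 rows, of which 95 had reads and 74 were tested. Their fold changes were negative for 50 of the 74, with a median of -0.13. By edgeR 0 were called and 4 had an unadjusted p under 0.05, against 1.12% and 12.9% of all miRNAs tested. The groups did not overlap in CPM for 9, all lower, against 8.24% of all miRNAs tested. After TMM scaling they did not overlap for 7, all lower, against 6.18%. Together these miRNAs held 4.49% ± 0.14 (SD, n = 4) of the reads in the knockouts and 5.01% ± 0.41 (SD, n = 3) in the wild types. The ranges overlapped, at 4.36% to 4.64% and 4.56% to 5.37%. The 10 Rtl1 antisense arms thus held 81.9% ± 1.01 (SD, n = 7) of the reads of the region's listed miRNAs.

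Of the rest of the region, miR-411-5p was the most abundant, at 9616 ± 567 CPM (SD, n = 4) in the knockouts and 10646 ± 1370 CPM (SD, n = 3) in the wild types. miR-410-3p stood at 7598 ± 225 CPM in the knockouts and 9142 ± 922 CPM in the wild types (log2 fold change -0.19 ± 0.10, edgeR adjusted p = 0.48), and miR-541-5p at 7410 ± 746 and 7771 ± 1334 CPM. The smallest p among lower miRNAs were those of miR-758-3p (log2 fold change -0.94 ± 0.32, edgeR adjusted p = 0.30) and miR-380-3p (-0.41 ± 0.15, edgeR adjusted p = 0.31). The groups overlapped for miR-758-3p, at 53.4 to 80.5 CPM in the knockouts and 74.6 to 242 CPM in the wild types, and did not for miR-380-3p. Among higher miRNAs they were those of miR-1247-5p (0.42 ± 0.28, edgeR adjusted p = 0.57) and miR-485-5p (0.30 ± 0.22, edgeR adjusted p = 0.60). Of the nearest hairpins outside the Rtl1 coding sequence, miR-665 lay closest, and its 3p arm stood at 14.5 ± 1.60 CPM (SD, n = 4) in the knockouts and 17.1 ± 2.79 CPM (SD, n = 3) in the wild types. Its 5p arm had 3 reads in all and was not tested. Farther out, miR-337-5p stood at 153 ± 22.7 CPM (SD, n = 4) in the knockouts and 151 ± 38.9 CPM (SD, n = 3) in the wild types, and miR-540-3p at 125 ± 43.5 and 113 ± 28.6 CPM. Their partner arms had lower means in the knockouts, miR-337-3p at 12.4 ± 0.90 and 16.3 ± 3.78 CPM and miR-540-5p at 34.9 ± 2.79 and 42.5 ± 10.5 CPM. The ranges overlapped for every arm of both hairpins. The hairpin of miR-432 lies between those of miR-434 and miR-136, on their strand and inside the Rtl1 coding sequence. It is not among the 5 hairpins, and its row had 0 reads in all 7 libraries, which allows up to 0.0989 CPM over the pooled libraries.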

How the data were processed

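The authors deposited unnormalized read counts, whole numbers for each small RNA row, in 7 tables. Phenol/chloroform extracts were sequenced after TruSeq small-RNA preparation (Illumina), per the labels' protocols. From the submitters' processing notes come mm10, DESeq2 and bcl2fastq (version 2.17.1.14), with no role stated. The sources used here do not give the aligner, counter or annotation. Each table has 66573 rows, and its 5 closing lines hold 0 reads. The members and lists were chosen with earlier results of these data known. Named were all 10 members and, of the other Dlk1-Dio3 miRNAs, the 3 most abundant, the 2 smallest p in each direction and the arms of miR-432, miR-3071, miR-665, miR-337 and miR-540, which lie nearest. The 5 most abundant miRNAs and the 5 non-members most like miR-127-3p were also named. Replicate numbers follow the deposit order and only name libraries.

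Mouse rows were fitted in edgeR 4.0.16 (R 4.3.3) with TMM scaling, filterByExpr (minimum count 10, total 15), robust quasi-likelihood tests and Benjamini-Hochberg adjustment over all miRNAs tested. Arm use was fitted with edgeR's paired-count model over hairpins with at least 50 reads in total and 7 per arm. DESeq2 1.42.0 and limma 3.58.1 were alternatives. Scripts were tested on simulated data. No 2 of the 21 library pairs were identical (chi-square per degree of freedom 46.6 to 271.2), and no batch is given. CPM were not scaled by TMM unless stated. Sequences and hairpins came from RefSeq (GRCm38.p6) and all 10 members matched. Rtl1 positions came from GENCODE M21.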

Additional observations from a re-analysis of the deposited data

Results flagged for a closer look

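Of 20 groups of values examined for a library far from the others (the 10 arm levels, the 5 arm shares and 5 summed shares in the 4 knockouts), 1 stood out, and chance alone gives about 1 in 20. miR-433-3p was at 721 CPM in knockout replicate 1 and at 496.3 to 524 CPM in the other 3 knockouts, so that the gap made up 0.875 of the range of the group.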

How the results depend on the processing

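Over 17 alternatives the levels of the 10 arms gave 170 values, of which 164 kept the direction and stayed on the same side of the threshold and 6 changed sign. The adjusted p ran from 0.29 to 0.99, and 0 of the 170 passed. The sign changed with 1 library left out for miR-127-5p (-0.076 without knockout replicate 3 to 0.017 without wild type replicate 2), miR-431-5p (-0.35 without wild type replicate 3 to 0.29 without wild type replicate 2), miR-433-3p (-0.32 without wild type replicate 1 to 0.041 without wild type replicate 3) and miR-434-5p (-0.099 without knockout replicate 3 to 0.0099 without wild type replicate 2, and 0.0090 without knockout replicate 1). Arm use gave 60 values over 12 alternatives, of which 8 changed sign, and with 1 library left out the log2 ratio ran from -0.10 to 0.013 for miR-136, from -0.68 to 0.048 for miR-431 and from -0.11 to 0.18 for miR-433. Without knockout replicate 3 and wild type replicate 2 together, an alternative added after seeing the data, miR-431-5p was at 0.25 and the arm ratio of miR-433 at -0.042. The number of miRNAs called over all, 6, was 19 with no filter on low counts, 14 in DESeq2, 3 (without wild type replicate 1) to 14 (without wild type replicate 2) with 1 library left out and 19 without knockout replicate 3 and wild type replicate 2. The causes were not tested. The share of miR-127-3p differed by -3.64 to -2.56 percentage points with 1 library left out (exact permutation p of 0.067 or 0.1, each the smallest possible) and by -4.01 without both of those libraries (exact permutation p = 0.1). No paired analysis was possible because the numbers in the titles do not repeat between the genotypes. Depth limits most the miR-433-5p values, which rest on 22 reads in the shallowest library.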
